A study of Mus musculus with 14 samples.

Results

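The genes described here were 39 genes of fatty acid and triglyceride synthesis, chosen by name from the 21853 genes measured. They cover the supply of acetyl-CoA and the making of palmitate (8 genes), chain elongation and desaturation (4), fatty acid uptake and activation (7), the supply of glycerol phosphate and glucose (3), the assembly and remodelling of glycerolipids (13) and transcription factors that control them (4). RNA-seq of ovaries and uteruses was compared between female C57BL/6J mice of 28 weeks given saline or AMSC-CM. The OC group (3 mice) had been injected with saline and the OT group (4 mice) with AMSC-CM. This was culture medium conditioned by human amniotic mesenchymal stem cells of 3 donors, pooled and concentrated on a filter. The medium was given into the tail vein at 1 µL per g of body weight in 6 injections 4 days apart. Both groups, OC included, had also received pregnant mare serum gonadotropin (10 IU) and 48 h later human chorionic gonadotropin (10 IU) to synchronize the estrous cycle. Each mouse gave an ovary and a uterus library, so 14 libraries fell into 4 groups. The comparison asked whether AMSC-CM changed the expression of these genes in either organ.

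Triglyceride is made in a chain of steps. Citrate leaves the mitochondrion and is cleaved to acetyl-CoA, acetyl-CoA carboxylase turns this into malonyl-CoA, and fatty acid synthase builds palmitate from it with NADPH, which is then elongated and desaturated. Fatty acids also enter from blood after lipoprotein lipase frees them from circulating triglyceride, and acyl groups from either source are added in turn to glycerol 3-phosphate. Adipose tissue, liver and lactating mammary gland are the classical sites of this pathway. In the ovary, steroid-making cells store esterified lipid in droplets, and fat pads lie against both the ovary and the uterus.

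Values are FPKM, a level that divides the fragments assigned to a gene by its transcript length and by the fragments mapped in that library. Whether the values were scaled further between libraries is not given in the sources used here. A log2 fold change is the mean of log2(FPKM + 0.1) in OT minus that in OC, which understates the change of low genes. A gene was called where this reached 1 in size with an unadjusted p of at most 0.05 in limma, the cutoffs of the study, among genes that passed a filter of a mean of 0.5 FPKM over the libraries fitted. Within a tissue the p-values measure the spread between mice, 3 OC against 4 OT. The fits of uterus against ovary (3 OC mice) and of the difference of responses (all 14 libraries) did not pair the libraries of a mouse. Their p-values measure the spread between libraries within a group, and the animal as a block was an alternative.

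The 75th percentile of FPKM was 15.3 to 15.8 in every library, while the total ran from 374816 to 471907 FPKM in 13 libraries and to 577494 FPKM in the uterus of OT1. That library stood apart for the genes described here: 34 of the 39 were at their highest among the 7 uteruses in OT1, and 29 were at least 2-fold above every other uterus there. The exceptions were Elovl5 and Scd2, highest in OC1, Lpin3, highest in OC3, Lpin2, highest in OT3, and Mogat2, highest in OT4. The summed FPKM of 6 ovary markers was 3075 to 3949 in ovaries and at most 19.3 in uteruses. The 5 uterus markers summed to 192 to 345 FPKM in uteruses and also reached 12.4 to 84.2 FPKM in ovaries. The number of the 39 genes called in the uterus is therefore given with and without OT1, while the other uterus counts include OT1.

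**Figure D1:**
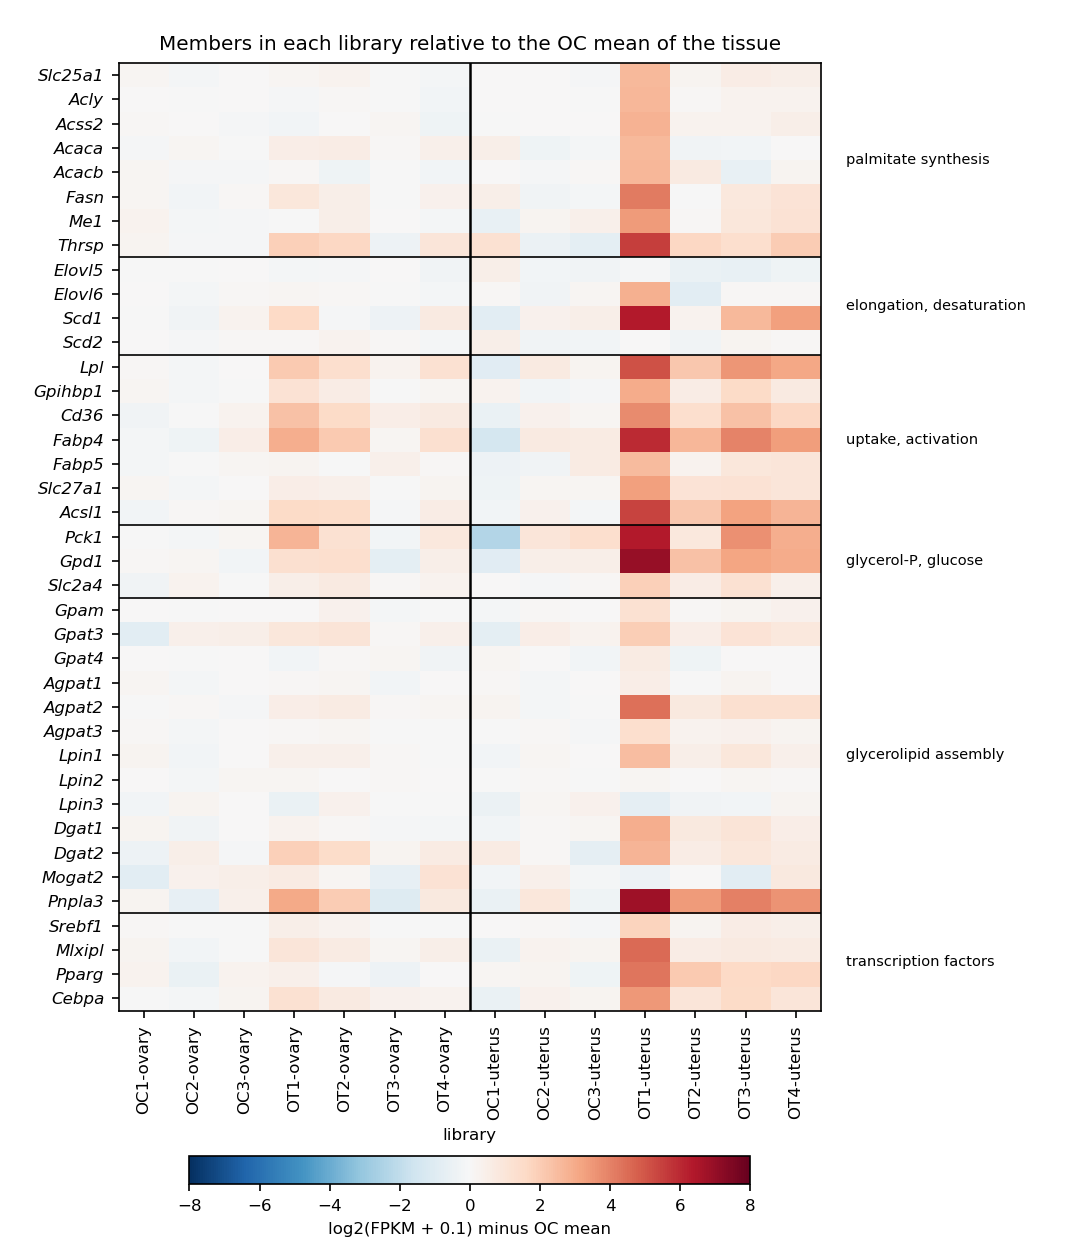
Each row is 1 of the 39 genes and each column 1 of the 14 libraries, with color giving log2(FPKM + 0.1) minus the mean of the 3 OC libraries of that tissue. The OT1 uterus column is dark for most genes, the other 3 OT uteruses rise mainly in uptake and activation, glycerol phosphate supply and Pnpla3, and the ovary columns are pale with the highest values in OT1 and OT2.

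Upstream sequences are shown for 4 genes that mark the range of the results: Pnpla3, Cd36 and Pck1, which rose in the OT-group uteruses, and Fasn, the enzyme that makes palmitate, which did not pass the cutoffs. Each is the 250 bases before a transcription start in RefSeq, build GRCm38.p6, read 5′ to 3′ on the strand of the gene. The window of Pnpla3 was chr15:84167566-84167815 (plus strand), that of Cd36 chr5:17835897-17836146 (minus strand, 1 of several starts of this gene), that of Pck1 chr2:173152823-173153072 (plus strand) and that of Fasn chr11:120824548-120824797 (minus strand). Capitals mark CCAAT boxes (CCAAT), GC boxes (GGGCGG) and nuclear receptor half-sites (AGGTCA), each on either strand.
Pnpla3: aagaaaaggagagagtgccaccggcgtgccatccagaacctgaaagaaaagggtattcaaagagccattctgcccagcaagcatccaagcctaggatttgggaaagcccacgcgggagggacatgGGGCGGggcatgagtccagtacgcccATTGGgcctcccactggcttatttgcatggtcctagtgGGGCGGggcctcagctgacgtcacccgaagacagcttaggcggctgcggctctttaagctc
Cd36: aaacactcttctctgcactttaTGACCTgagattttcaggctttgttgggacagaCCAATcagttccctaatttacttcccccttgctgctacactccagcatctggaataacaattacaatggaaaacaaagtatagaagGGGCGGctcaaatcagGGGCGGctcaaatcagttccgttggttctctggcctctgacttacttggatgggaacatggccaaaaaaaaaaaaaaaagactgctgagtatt
Pck1: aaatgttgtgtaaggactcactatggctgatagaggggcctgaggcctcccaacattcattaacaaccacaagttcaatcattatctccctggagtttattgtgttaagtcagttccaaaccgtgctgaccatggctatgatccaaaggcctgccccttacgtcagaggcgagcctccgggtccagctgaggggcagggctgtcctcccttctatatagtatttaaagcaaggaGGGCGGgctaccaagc
Fasn: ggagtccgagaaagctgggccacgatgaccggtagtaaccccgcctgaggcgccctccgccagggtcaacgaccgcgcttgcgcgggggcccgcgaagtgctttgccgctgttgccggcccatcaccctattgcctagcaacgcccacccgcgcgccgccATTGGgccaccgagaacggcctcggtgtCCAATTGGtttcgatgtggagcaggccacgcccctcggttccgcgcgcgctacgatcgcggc
Pnpla3 and Cd36 held GC boxes and a CCAAT box, Pck1 a GC box close to the start, and Fasn 3 CCAAT boxes of which a forward and a reverse match overlapped. The Pck1 window runs past the GENCODE start of the gene at 173153048, so its GC box lies inside the gene by that annotation. Bases after the RefSeq starts of Pck1 and Fasn were found near the start of a GENCODE transcript, and those of Pnpla3 and Cd36 were not. RefSeq windows were found for 27 of the 39 genes, 41 windows in all. CCAAT was present in 48.8% of these windows and in 33.8% of all 32851 windows of this length, and GGGCGG in 56.1% and 32.7%. The E box CACGTG was present in 12.2% against 6.02%, AGGTCA in 19.5% against 14.02%, and TATAAA in 7.32% against 12.4%. These are letter matches and were not tested.

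In the OC-group ovaries, the genes were already expressed over a wide range. Scd2, a stearoyl-CoA desaturase that puts the first double bond into saturated acyl chains, was the highest at 390 ± 21.7 FPKM (SD, n = 3). Me1, malic enzyme, which supplies NADPH, followed at 321 ± 51.8 FPKM and Elovl5, an elongase of polyunsaturated chains, at 288 ± 2.91 FPKM. The OC ovaries overlapped between Scd2 (367 to 410 FPKM) and Me1 (287 to 381 FPKM), as they did between Me1 and Elovl5 (286 to 291 FPKM). Gpam, the mitochondrial enzyme that adds the first acyl group to glycerol phosphate, and Acly, ATP citrate lyase, were alike at 155 ± 4.69 and 155 ± 3.35 FPKM. The lowest were Pnpla3, a patatin-like lipase and transacylase of lipid droplets, at 1.69 ± 0.630 FPKM and Mogat2, the monoacylglycerol acyltransferase of the intestine, at 0.421 ± 0.218 FPKM.

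The OC-group uteruses expressed most of these genes at lower levels. Of the 39 genes, 16 were lower and 3 higher in OC uterus than in OC ovary at a log2 difference of at least 1 and a Benjamini-Hochberg adjusted p under 0.05 by limma. Over all 14459 genes tested, 10.0% were lower and 9.33% higher in the uterus. The drop was greatest for Me1, at 11.7 ± 3.93 FPKM in the uterus (log2 difference −4.81 ± 0.26 SE). Lower levels were also found for Elovl6, which elongates palmitate (−2.44 ± 0.14), Acly (−1.998 ± 0.06), Gpam (−1.91 ± 0.08), Pnpla3 (−1.86 ± 0.49), Pparg (−1.79 ± 0.27) and Mlxipl (−1.74 ± 0.26). Fabp5, Dgat1, Elovl5, Gpd1, Slc27a1, Acss2, Scd1, Lpin2 and Scd2 were lower by log2 differences of −1.64 to −1.005. The genes higher in the uterus were Mogat2 (2.30 ± 0.42), Slc2a4, the insulin-responsive glucose carrier (1.42 ± 0.15), and Dgat2, which adds the last acyl group of triglyceride (1.42 ± 0.37). Scd2 was again the highest at 200 ± 61.3 FPKM, followed by Elovl5 at 107 ± 30.7 FPKM. Fabp4, the fatty acid binding protein of fat cells, stood at 62.2 ± 36.9 FPKM in the uterus and 64.2 ± 21.9 FPKM in the ovary, a difference smaller than the spread within either tissue.

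**Figure D2:**
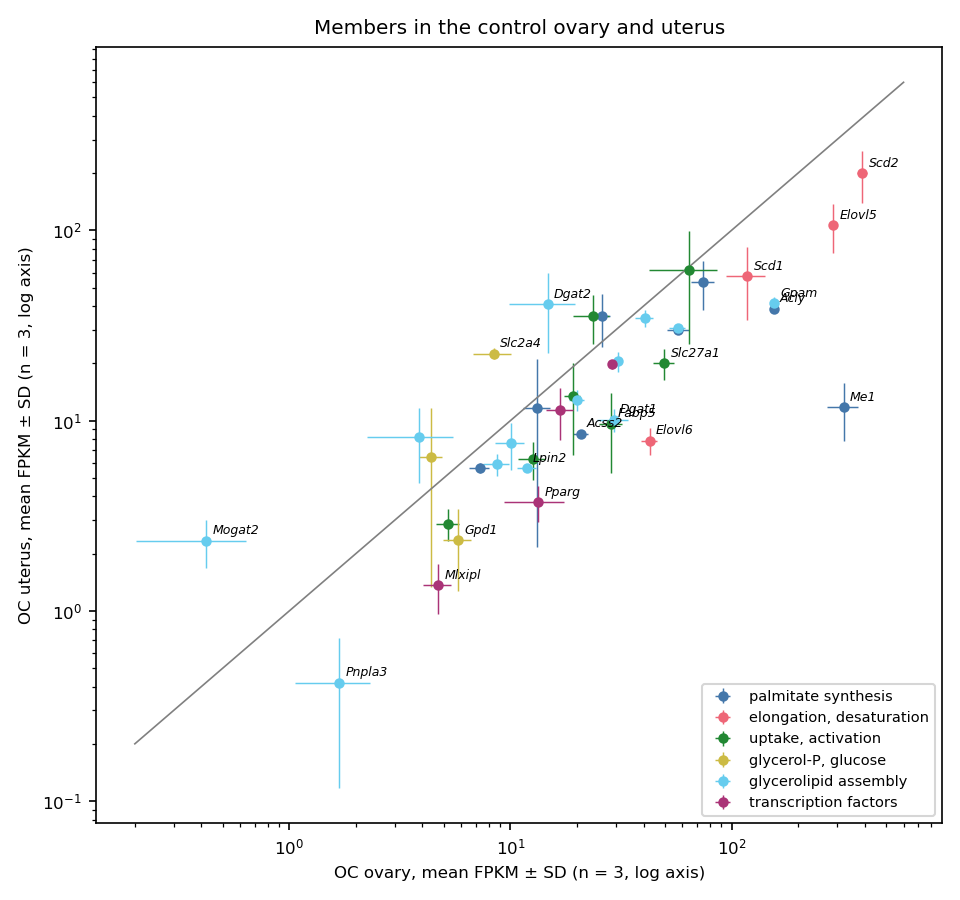
Mean FPKM of each of the 39 genes in the 3 OC uteruses (vertical) against the 3 OC ovaries (horizontal), both on log axes with bars of 1 SD, colored by role, and with equal levels on the line. Names are given for the 19 genes that differed, 16 of them below the line with Me1 farthest from it and 3 above it, Mogat2, Slc2a4 and Dgat2.

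In the OT-group ovaries, 4 of the 39 genes rose and none fell at the cutoffs, all of them in the handling of fatty acids from outside the cell or in the last step of triglyceride assembly. Over all 14415 genes tested in the ovary, 0.368% were called higher and 0.0832% lower. No gene had an adjusted p under 0.05 and the adjusted p of each of the 4 was 0.997 by limma. Of the 39 genes, 32 had a log2 fold change above 0, with a median of 0.28 beside −0.01 over all genes tested, and 9 had an unadjusted p under 0.05 where 650 of all genes did.

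Lpl, lipoprotein lipase, stood at 20.1, 17.3 and 19.9 FPKM in the OC ovaries and at 81.4, 48.2, 22.7 and 44.0 FPKM in OT1 to OT4. Every OT ovary was above every OC ovary, with OT3 close to the OC range (log2 fold change 1.22 ± 0.35 SE). Cd36, a fatty acid translocase of the cell surface, was at 19.4, 23.1 and 28.1 FPKM in OC and at 120, 68.8, 34.4 and 39.0 FPKM in OT. These groups did not overlap either (1.31 ± 0.39). Fabp4 was at 55.0, 48.4 and 89.1 FPKM in OC and at 461, 269, 69.2 and 151 FPKM in OT (1.62 ± 0.56), and here OT3 lay inside the OC range. Dgat2 was at 10.5, 20.1 and 13.6 FPKM in OC and 52.7, 40.3, 16.4 and 23.0 FPKM in OT (1.07 ± 0.39), again with OT3 inside the OC range. Lpl, Cd36, Fabp4 and Dgat2 are also on the list of genes changed in both organs that the study drew from these same samples, so their direction is not independent of it. Pck1, Pnpla3 and Thrsp are on that list too but were not called in the ovary here. Their log2 fold changes were 1.14 ± 0.56, 1.18 ± 0.83 and 1.04 ± 0.48, past the cutoff on size and short of that on p. Cebpa, an adipogenic transcription factor, was the other gene whose groups did not overlap, at 16.3, 14.7 and 19.3 FPKM in OC and 39.6, 28.1, 21.1 and 20.5 FPKM in OT (0.66 ± 0.22), under the cutoff on size. Those 3 of 39 genes without overlap stand beside 2.78% of all genes with every OT ovary above every OC ovary and 3.13% with every OT ovary below, where none of the 39 lay.

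The steps that build fatty acids gave no call in the ovary. Of the 8 genes of palmitate synthesis 1 had an unadjusted p under 0.05 (Acaca), and of the 4 of elongation and desaturation none. Acaca, acetyl-CoA carboxylase 1, was at 24.6 to 28.6 FPKM in OC and 27.3 to 39.3 FPKM in OT, and Fasn at 64.1 to 80.7 and 71.8 to 136 FPKM. Thrsp, a small lipogenic protein of unsettled mechanism, was at 12.1 to 15.4 FPKM in OC and at 10.00 to 49.1 FPKM in OT, with OT3 the lowest of the 7. The most abundant genes were not called: Scd2 had means of 390 and 412 FPKM, Me1 321 and 338 FPKM, and Elovl5 288 and 264 FPKM, each with overlapping groups.

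The OT ovaries differed among themselves in the same order for the genes described here and for fat cell markers. The median of the 39 genes lay 0.45, 0.40, −0.01 and 0.17 above the OC mean on the log2 scale in OT1 to OT4. The median of 14 adipocyte markers, none of them among the 39, lay 2.74, 1.94, 0.02 and 0.95 above it. Of those markers 6 were called higher and none lower, and their summed FPKM was 319 to 405 in OC and 354 to 1562 in OT. None of the 14 was at 0 in OC. All of them but Lipe, Plin4 and Mrap are on the study's list of genes changed in both organs, so their direction is not independent of it. Mrap, Plin4 and Lipe had means of 153, 54.1 and 20.4 FPKM in OC ovaries and of 0.964, 6.78 and 15.9 FPKM in OC uteruses, and Aqp7, also called, passed the filter only through the OT ovaries. In bulk tissue, more cells of a type and more RNA per cell cannot be told apart. With the mean adipocyte marker level as a covariate, none of the 39 genes was called. That level was itself higher in OT1, OT2 and OT4 than in OC, so this fit does not fully separate the group from the marker level. The part of adipocyte content in these changes was not tested. Endothelial markers had no call. Macrophage markers had no call either, though 2 of the 5 were without overlap between groups, with sums of 103 to 127 FPKM in OC and 121 to 185 FPKM in OT. Brown adipocyte markers had no call, with Ucp1 at 0 in every ovary.

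Single ovaries decided the count. Without OT1 only Fabp4 was called (1.19 ± 0.46), without OC1 2 genes were, and without OT3 9 genes were called. Fabp4 itself missed the p cutoff without OC1 or OC2.

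In the OT-group uteruses, 17 of the 39 genes rose and none fell at the cutoffs, mainly in uptake and activation (6 of 7) and in the supply of glycerol phosphate and glucose (3 of 3). The other steps gave 4 of 13 in glycerolipid assembly, 2 of 4 transcription factors, 1 of 8 in palmitate synthesis and 1 of 4 in elongation and desaturation. Over all 14151 genes tested in the uterus, 2.23% were called higher and 0.664% lower. No gene passed an adjusted p of 0.05 by limma, the 17 had adjusted p of 0.357 to 0.593, and 1160 of all genes had an unadjusted p under 0.05. The log2 fold change was above 0 for 36 of the 39 genes, with a median of 1.16 beside 0.01 over all genes tested. All 4 OT uteruses were above all 3 OC uteruses for 23 of the 39 genes, where this held for 6.46% of all genes, and below for none, where it held for 5.48%. Without OT1, 12 of the 39 were called higher, where 1.72% of the 14105 genes then tested were. These 12 were Thrsp, Scd1, Lpl, Cd36, Fabp4, Slc27a1, Acsl1, Gpd1, Agpat2, Pnpla3, Pparg and Cebpa, and 5 were lost. Of these, Gpihbp1 (0.95 ± 0.29), Slc2a4 (0.74 ± 0.20), Gpat3 (0.82 ± 0.34) and Dgat1 (0.79 ± 0.18) were then under the cutoff on size and still within that on p, and Pck1 (2.46 ± 1.08) was past the cutoff on size and missed that on p. Without OT1, uptake and activation thus lost Gpihbp1, and only Gpd1 stayed called of the glycerol phosphate and glucose genes. Without OC1 or without OC2, 11 were called. The study's list of genes changed in both organs, drawn from these same samples, holds 7 of the 39 genes. These are Lpl, Cd36, Fabp4, Dgat2, Pck1, Pnpla3 and Thrsp, and their direction in the uterus is not independent of that list. Of these, Dgat2 was not called in the uterus here.

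**Figure D3:**
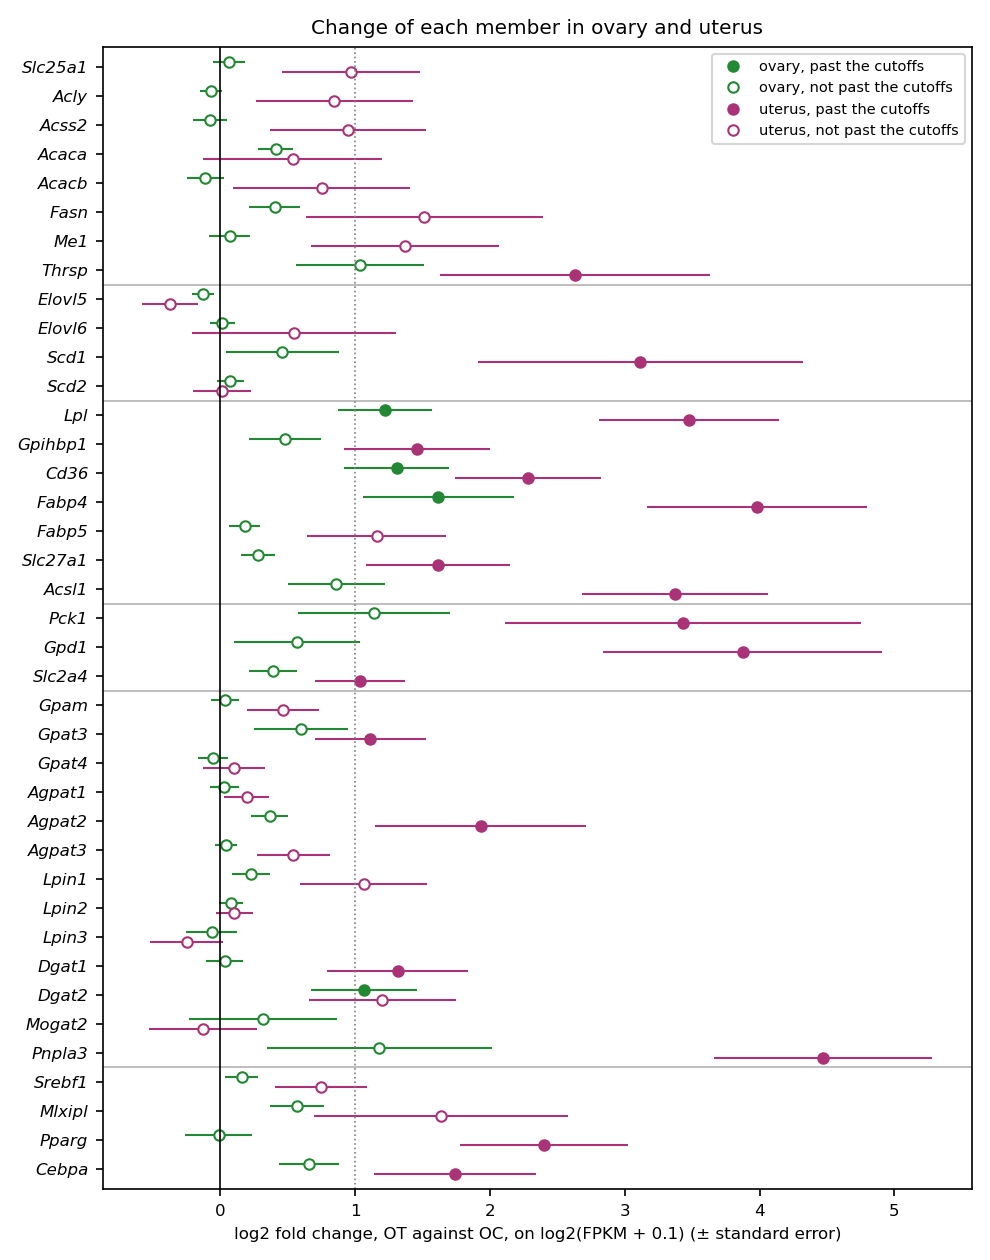
Log2 fold change of OT against OC for each of the 39 genes (points) with 1 standard error (bars), ovary in green and uterus in purple, filled where past the cutoffs, with 0 as a solid and 1 as a dotted line. In the ovary 4 points are filled and in the uterus 17, all to the right, with the greatest values for Pnpla3, Fabp4 and Gpd1 in the uterus.

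Genes that bring fatty acids into the cell and activate them rose at 6 of 7. Lpl (ENSMUSG00000015568, mm10 chr8:68880491-68907448, plus strand) was at 6.33, 19.8 and 14.04 FPKM in the OC uteruses and at 425, 54.1, 141 and 105 FPKM in OT1 to OT4. The lowest OT uterus was above the highest OC uterus, so the rise did not rest on OT1 (log2 fold change 3.48 ± 0.67 SE, adjusted p = 0.357, and 2.93 ± 0.48 without OT1). Gpihbp1, which anchors that lipase to the capillary wall, was at 3.51, 2.45 and 2.67 FPKM in OC and 23.1, 4.38, 8.56 and 4.67 FPKM in OT (1.46 ± 0.54). Cd36 (ENSMUSG00000002944, chr5:17781690-17888801, minus strand) was at 24.3, 44.3 and 38.3 FPKM in OC and 478, 89.2, 175 and 108 FPKM in OT (2.28 ± 0.54). For Gpihbp1 and Cd36, too, every OT uterus exceeded every OC uterus. Fabp4 (ENSMUSG00000062515, chr3:10204088-10208576, minus strand) was at 19.7, 86.3 and 80.6 FPKM in OC and rose to 3228, 326, 805 and 519 FPKM in OT (3.98 ± 0.81, adjusted p = 0.357). The neighboring Fabp5, a related binding protein of skin and other tissues, was at 6.77, 7.53 and 14.6 FPKM in OC and 52.7, 11.1, 16.8 and 17.6 FPKM in OT, with the OT2 uterus inside the OC range and no call. Slc27a1, a fatty acid transport protein, was at 15.8 to 22.3 FPKM in OC and 38.1 to 189 FPKM in OT (1.62 ± 0.53). Acsl1 (ENSMUSG00000018796, chr8:46471037-46536051, plus strand), the acyl-CoA synthetase that readies fatty acids for triglyceride, was at 5.29, 7.96 and 5.68 FPKM in OC and 270, 27.6, 59.5 and 40.8 FPKM in OT (3.37 ± 0.69, adjusted p = 0.357). Neither Slc27a1 nor Acsl1 had overlapping groups.

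Glycerol 3-phosphate, the backbone to which the acyl groups are added, can be made through Gpd1 from glucose or, by way of Pck1, from smaller precursors. Gpd1, glycerol-3-phosphate dehydrogenase (ENSMUSG00000023019, chr15:99717515-99725005, plus strand), was at 1.10, 2.96 and 2.99 FPKM in the OC uteruses and at 287, 11.4, 20.3 and 17.5 FPKM in the OT uteruses. All OT uteruses exceeded all OC uteruses, and OT1 was 14.1-fold above the next (3.87 ± 1.03, adjusted p = 0.485, and 2.83 ± 0.40 without OT1). Pck1, phosphoenolpyruvate carboxykinase (chr2:173153048-173159273, plus strand), was at 0.742, 8.02 and 10.7 FPKM in OC and 343, 7.26, 52.9 and 31.1 FPKM in OT (3.43 ± 1.32, adjusted p = 0.570). OT2 lay inside the OC range, which was wide, and without OT1 Pck1 kept a log2 fold change of 2.46 ± 1.08 but missed the p cutoff. Slc2a4 was at 22.8, 20.9 and 23.9 FPKM in OC and 84.8, 34.6, 51.9 and 29.8 FPKM in OT, without overlap and just past the cutoff on size (1.04 ± 0.33).

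The assembly enzymes called came from several steps, and paralogs were compared by their levels and calls alone, not by a test. Pnpla3 (ENSMUSG00000041653, chr15:84167837-84187236, plus strand) had the greatest log2 fold change of the 39, from 0.218, 0.767 and 0.273 FPKM in OC to 52.2, 4.93, 7.64 and 5.62 FPKM in OT (4.47 ± 0.81, adjusted p = 0.357, and 3.69 ± 0.42 without OT1). Every OT uterus was above every OC uterus. The OC mean of 0.419 FPKM was under the filter, so Pnpla3 entered the test only through the OT uteruses, and without it 16 of the other 38 genes were called. Agpat2, which adds the second acyl group and whose loss causes lipodystrophy, was at 14.6, 11.6 and 12.2 FPKM in OC and 270, 21.9, 31.6 and 30.6 FPKM in OT (1.93 ± 0.78). Its paralogs Agpat1 and Agpat3 had OC means of 34.7 and 30.5 FPKM and OT means of 40.1 and 46.9 FPKM, and neither was called, although Agpat3 did not overlap (0.54 ± 0.27). Gpat3, a microsomal acyltransferase for the first step, was at 4.33 to 11.1 FPKM in OC and 11.2 to 30.7 FPKM in OT (1.11 ± 0.41), whereas its paralog Gpat4 had means of 20.5 and 22.6 FPKM with overlapping groups. Gpam was at 37.7 to 43.3 FPKM in OC and 43.9 to 97.0 FPKM in OT, without overlap but under the cutoffs (0.47 ± 0.27). Among the lipins, which remove the phosphate, Lpin1 was at 5.08 to 6.63 FPKM in OC and 7.997 to 33.1 FPKM in OT without overlap. It was past the cutoff on size and missed that on p (1.06 ± 0.47, adjusted p = 0.599 by limma). Lpin2 and Lpin3 overlapped with means of 5.61 and 6.04 FPKM and of 7.60 and 6.37 FPKM. For the last step, Dgat1 was at 8.43, 10.94 and 10.96 FPKM in OC and 75.9, 17.6, 20.8 and 14.4 FPKM in OT, without overlap (1.32 ± 0.52), and Dgat2 was at 60.0, 40.1 and 23.2 FPKM in OC and 250, 57.1, 70.8 and 59.8 FPKM in OT, with overlap and no call. Mogat2, next to Dgat2 on chromosome 7, was at 1.91 to 3.11 FPKM in OC and 1.21 to 3.94 FPKM in OT.

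Fatty acid synthesis itself passed the cutoffs at a single gene of 8 in the uterus. Thrsp was at 22.6, 6.78 and 5.58 FPKM in OC and 443, 29.9, 24.4 and 38.7 FPKM in OT (2.63 ± 1.00, adjusted p = 0.570), and OT3 was only just above OC1. Fasn (chr11:120805846-120824547, minus strand) was at 71.2, 42.5 and 47.0 FPKM in OC and 944, 50.1, 92.6 and 113 FPKM in OT, with OT2 inside the OC range. Acaca was at 47.8, 26.8 and 31.3 FPKM in OC and 204, 28.5, 30.0 and 35.1 FPKM in OT, so that apart from OT1 the groups lay on each other. Me1 was at 7.27 to 14.7 FPKM in OC and 11.9 to 118 FPKM in OT, and Acacb, the carboxylase of the mitochondrial surface, at 5.28 to 5.94 and 3.74 to 36.3 FPKM. Slc25a1, the citrate carrier, Acly and Acss2, acetyl-CoA synthetase, did not overlap between groups and missed the cutoffs, with OC ranges of 28.4 to 31.2, 37.4 to 40.0 and 8.43 to 8.63 FPKM and log2 fold changes of 0.97 ± 0.51, 0.85 ± 0.58 and 0.95 ± 0.58. The 3 OT uteruses other than OT1 were at 35.3 to 45.8 FPKM for Slc25a1, 41.2 to 48.2 FPKM for Acly and 10.2 to 12.01 FPKM for Acss2, above a tight OC range by a small margin.

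The 2 desaturase genes among the 39, both on chromosome 19, parted. Scd1 (ENSMUSG00000037071, chr19:44394455-44407879, minus strand) was at 30.3, 67.5 and 75.4 FPKM in OC and 4405, 64.9, 319 and 514 FPKM in OT (3.12 ± 1.21, adjusted p = 0.573), and its level in OT1 was the highest of any of the 39 genes in any library. Scd2 (ENSMUSG00000025203, chr19:44293674-44306864, plus strand) was at 271, 163 and 166 FPKM in OC and 197, 159, 227 and 205 FPKM in OT. Scd1 thus exceeded the OC range in 3 of the 4 OT uteruses, with OT2 inside it, and Scd2 overlapped throughout. Elovl6 was above the OC range in OT1 alone, at 56.4 FPKM against 6.37 to 8.68 FPKM, and Elovl5 had a lower mean in OT, 81.2 against 107 FPKM, with overlap.

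**Figure D4:**
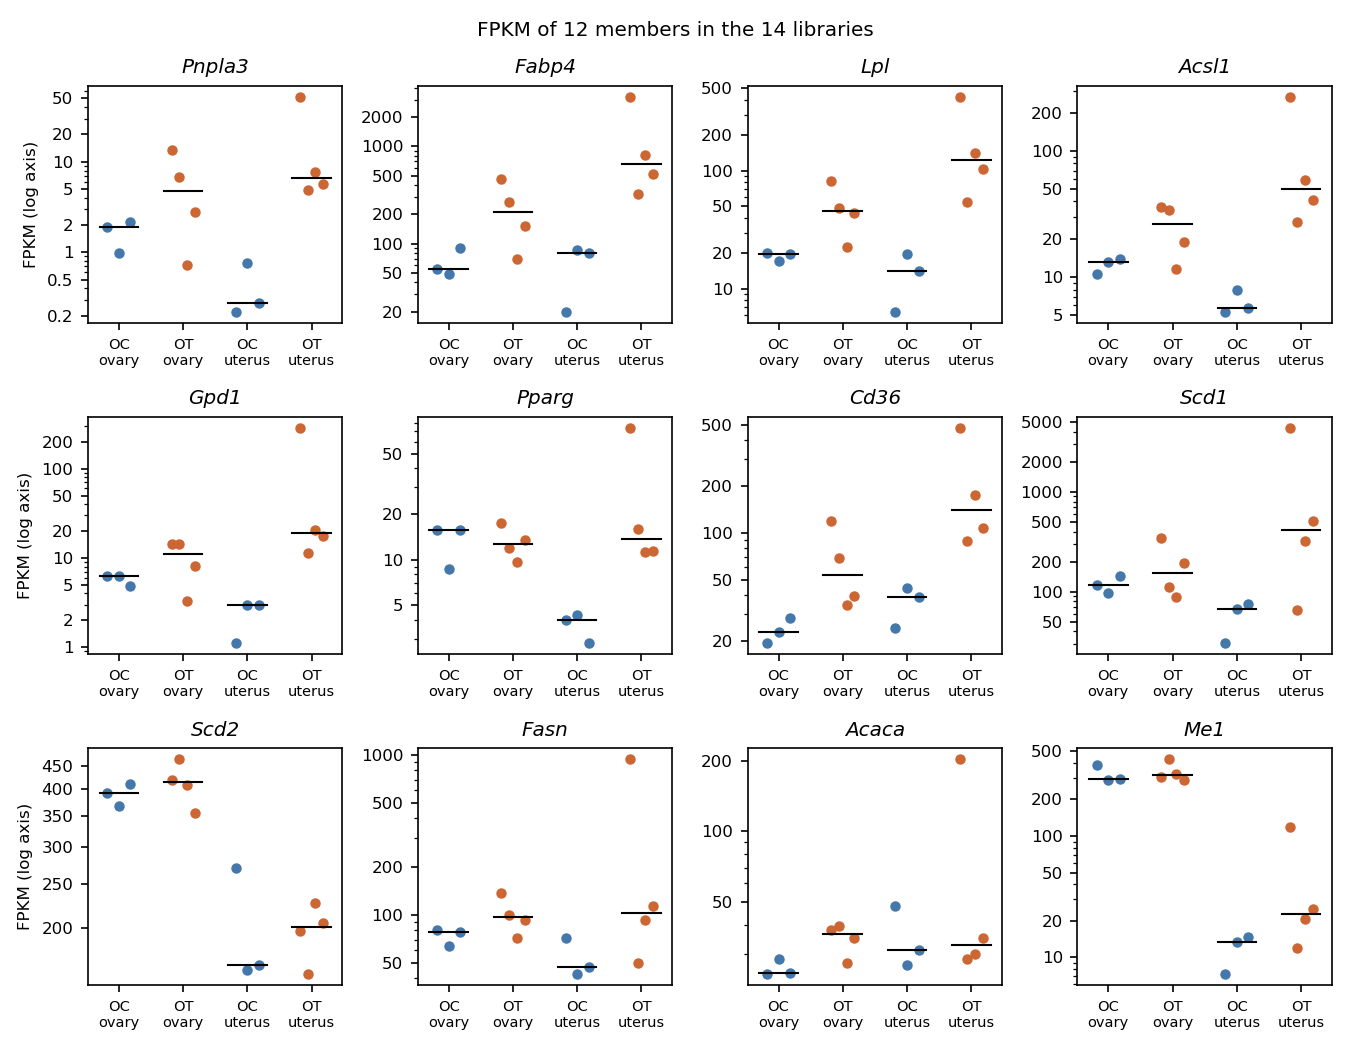
FPKM (log axes that differ between panels) of 12 of the genes in each library, with OC in blue, OT in orange, and a line at the group median. In the uterus the 4 OT points of Pnpla3, Fabp4, Lpl, Acsl1, Gpd1, Pparg and Cd36 lie above all OC points, those of Scd1, Fasn and Me1 overlap at OT2, those of Acaca in all but OT1 and those of Scd2 throughout, and OT1 is the highest point for all but Scd2.

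The transcription factors of the pathway had no overlap between OC and OT in the uterus. Pparg, the nuclear receptor that directs fat cell differentiation (ENSMUSG00000000440, chr6:115360951-115490399, plus strand), was at 3.999, 4.33 and 2.82 FPKM in OC and 74.0, 16.0, 11.2 and 11.5 FPKM in OT (2.40 ± 0.62, adjusted p = 0.485, and 1.77 ± 0.22 without OT1). Cebpa, which acts with it, was at 7.44, 13.8 and 12.999 FPKM in OC and 125, 21.8, 32.3 and 21.3 FPKM in OT (1.74 ± 0.60). Srebf1, which answers to insulin and sterols, was at 18.8 to 20.9 FPKM in OC and 23.0 to 67.3 FPKM in OT, and missed the cutoffs (0.75 ± 0.34). Mlxipl, the carbohydrate-responsive factor, was at 0.902, 1.63 and 1.56 FPKM in OC and 33.4, 2.05, 2.24 and 2.18 FPKM in OT (1.64 ± 0.94), so that apart from OT1 its levels remained low.

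Fat cell markers moved with these genes in the uterus. All 14 adipocyte markers were called higher without overlap, of which Aqp7 passed the filter only through the OT uteruses. Their summed FPKM was 67.6, 189 and 180 in OC1 to OC3 and 8676, 983, 1568 and 765 in OT1 to OT4. All but Lipe, Plin4 and Mrap are on the study's list of genes changed in both organs, drawn from these same samples. The calls of those on the list are not independent of it. None of the 14 was at 0 in an OC uterus, and Adipoq was at 8.396 to 28.6 FPKM there and at 117 to 777 FPKM in OT. On the log2 scale the median adipocyte marker lay 5.94, 2.43, 3.58 and 2.74 above the OC mean in OT1 to OT4 and the median of the 39 genes 2.77, 0.45, 0.89 and 0.68. Brown adipocyte markers set OT1 apart: they summed to 742 FPKM in OT1 against 37.0 to 49.3 FPKM in OC and 19.8 to 42.0 FPKM in OT2 to OT4, and Ucp1, the defining marker, reached 210 FPKM in OT1 and was at 0 in OC. The 1 brown marker called was Dio2, which fell (log2 fold change −1.17).

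Markers of other cell types also differed. Of 8 markers of stratified squamous epithelium, 7 were called higher without overlap, with sums of 2.60 to 12.4 FPKM in OC and 44.8 to 798 FPKM in OT, highest in OT3. Of the 7, Krt6a, Krt14, Krt4 and Trp63 passed the filter only through the OT uteruses, and the eighth marker, Sprr3, was at 0 in every uterus and was not tested. Of the 5 uterus markers none was called and 3 lay below OC in every OT uterus, with sums of 328 to 345 FPKM in OC and 192 to 278 FPKM in OT. Endothelial markers had no call (75.3 to 117 FPKM in OC, 71.6 to 96.3 FPKM in OT), and neither did macrophage markers (137 to 154 and 154 to 401 FPKM). With the mean adipocyte marker level as a covariate, no gene of the 39 was called higher and 10 were called lower, but OC and OT uteruses did not overlap in that level, so the group and the marker level cannot be told apart in these libraries. The part of the squamous and uterine marker shifts in the changes of the 39 genes was not tested.

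**Figure D5:**
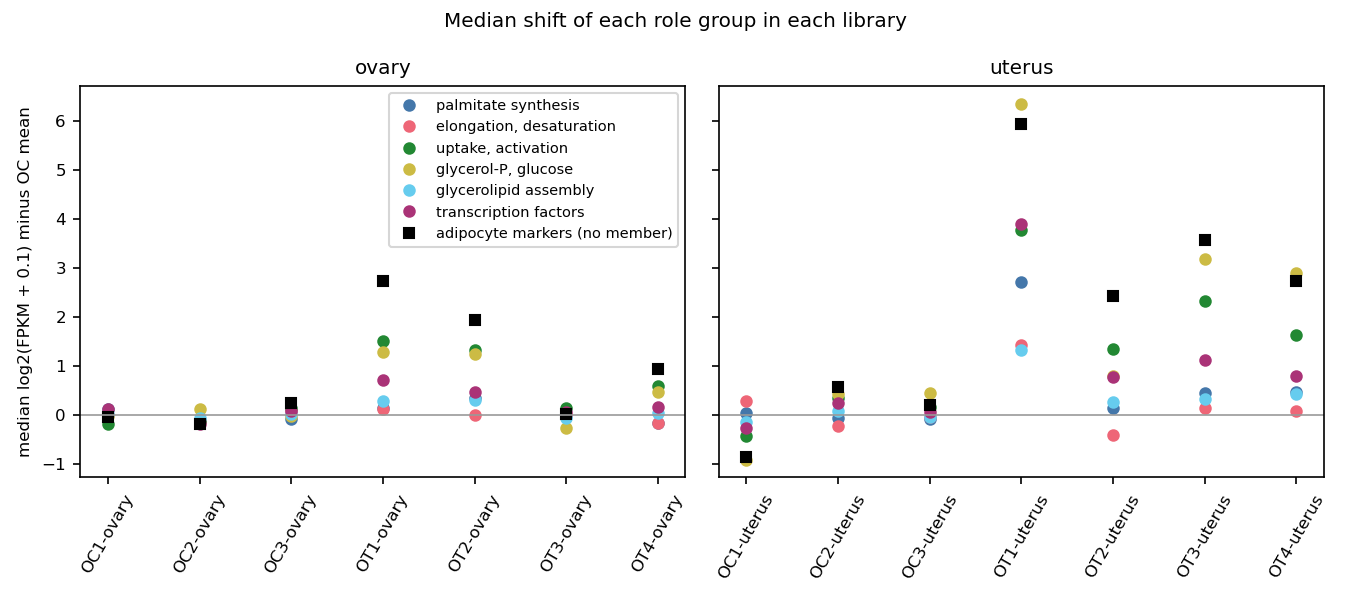
Median of log2(FPKM + 0.1) minus the OC mean over the genes of each role (colored circles) and over 14 adipocyte markers (black squares) in each ovary and uterus library. In OT ovaries the circles spread most in OT1 and OT2, where the squares are highest, and lie near 0 in OT3, and in OT1 of the uterus the glycerol phosphate and glucose genes reached 6.36 beside 5.94 for the markers.

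The glycerol phosphate and glucose genes had the highest median shift of the roles in OT1, OT3 and OT4 of the uterus, and the uptake and activation genes had it in OT2. The median shift of the glycerol phosphate and glucose genes was 6.36, 0.81, 3.18 and 2.90 in OT1 to OT4 and that of uptake and activation 3.78, 1.36, 2.33 and 1.64. The transcription factors were at 3.90, 0.78, 1.13 and 0.81, above uptake and activation in OT1 and below it in OT2 to OT4. Glycerolipid assembly was at 1.34, 0.28, 0.34 and 0.43, palmitate synthesis at 2.73, 0.16, 0.45 and 0.48, and elongation and desaturation at 1.43, −0.40, 0.16 and 0.08. Palmitate synthesis was above glycerolipid assembly in OT1, OT3 and OT4 and below it in OT2.

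The change in the uterus was set against that in the ovary of the same groups in a fit of all 14 libraries. For 7 of the 39 genes the change was larger in the uterus at the cutoffs, where this held for 1.28% of 14557 genes, and for none was it larger in the ovary. The 7 differences had an adjusted p of 0.844 by limma. Pparg had the smallest unadjusted p: in the ovary it was at 13.4 ± 4.02 FPKM in OC and 13.1 ± 3.24 FPKM in OT, and the difference of its log2 fold changes was 2.42 ± 0.74 (adjusted p = 0.844). Gpd1 (3.31 ± 1.25), Pnpla3 (3.29 ± 1.29), Acsl1 (2.51 ± 0.86) and Lpl (2.26 ± 0.83) rose more in the uterus, as did Slc27a1 (1.34 ± 0.60) and Dgat1 (1.28 ± 0.59). With each library left out in turn, Acsl1 and Pparg stayed past the cutoffs. Gpd1, Lpl and Pnpla3 missed them without OC1 of the uterus, Pnpla3 also without OC3 of the ovary, and Slc27a1 and Dgat1 without OT1 of the uterus and several other libraries. For Fabp4 (1.62 against 3.98) and Scd1 (0.46 against 3.12) the difference did not pass the p cutoff. Dgat2 had log2 fold changes of 1.07 in ovaries and 1.202 in uteruses, and passed the p cutoff in the ovary alone.

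Genes of the same pathway that are not among the 39 gave fewer calls. Of 40 related genes, such as those of NADPH supply, sterol sensing and fatty acid binding, none was called in the ovary by limma. Among all genes there, 0.368% were called higher and 0.0832% lower. Of the 40, 3 had an unadjusted p under 0.05, and the median log2 fold change was −0.02. All OT ovaries were above all OC ovaries for 2 and below for 3, where this held for 2.78% and 3.13% of all genes. Angptl4 lay below, at 43.9 to 48.9 FPKM in OC and 27.4 to 32.2 FPKM in OT (−0.61 ± 0.08), under the cutoff on size. Its adjusted p of 0.477 by limma was the smallest of all genes tested in the ovary. In the uterus 4 of the 40 were called higher and none lower, with a median of 0.31. Among all genes there, 2.23% were called higher and 0.664% lower. All OT uteruses were above all OC uteruses for 8 of the 40, where this held for 6.46% of all genes. The 4 called were Mogat1, a monoacylglycerol acyltransferase (3.50 ± 0.82), Insig1, a sterol-regulated retention protein of the endoplasmic reticulum (1.46 ± 0.56), Mpc1, a subunit of the mitochondrial pyruvate carrier (1.02 ± 0.39), and Ppargc1b, a coactivator (1.02 ± 0.39). Mogat1 was at most 0.178 FPKM in OC and 0.761 to 6.32 FPKM in OT, so it too passed the filter only through the OT group. The summed FPKM of the 40 was 1150 to 1171 in OC uteruses and 1244 to 2642 in OT uteruses.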

How the data were processed

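The 3 OC mice and 4 OT mice gave 14 stranded, rRNA-depleted RNA-seq libraries, grouped and numbered by their labels. Per the methods, the authors used Skewer 0.2.2 for trimming, STAR 2.5 for alignment to mm10 and Cufflinks 2.2.1 for FPKM per gene, and these deposited FPKM were used without further scaling here. Whether they were scaled between libraries beforehand is not given in the sources used here. With no counts, library depth and counting error are unknown, and the precision is limited by the number of mice. Symbols and positions came from GENCODE M21 and upstream sequences from RefSeq.

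Genes whose mean reached 0.5 FPKM over the fitted libraries of a tissue were tested with limma 3.58.1 in R 4.3.3 (lmFit, eBayes with trend) on log2(FPKM + 0.1), and p-values were Benjamini-Hochberg adjusted over all genes tested. All 39 genes passed the filter in both tissues, Pnpla3 in the uterus and Mogat2 in the ovary with an OC mean under it. Genes were called where the log2 fold change reached 1 in size with an unadjusted p of at most 0.05, or, between OC uterus and OC ovary, with an adjusted p under 0.05. The difference between tissues was a contrast in a fit of all 14 libraries. Neither this fit nor that of OC uterus against OC ovary paired the libraries of a mouse. The fits were tested on simulated data. Log2 fold changes are printed for genes that were called or whose OC and OT libraries did not overlap. They are also printed for genes set side by side between tissues or set against the study's list. The members, marker lists and related genes were chosen with earlier results of these data known.

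The alternatives were pseudocounts of 1 and 0.01 FPKM, no filter and a filter at 1 FPKM, median-ratio and TPM scaling, robust eBayes, the replicate number or the animal as a block, 1 fit of all libraries, an adipocyte marker covariate, and leaving out each replicate. The ovary and uterus libraries of an animal carry the same mouse code. Their deviations from the group means correlated at 0.07 to 0.16 in OC and 0.11 to 0.25 in OT across genes. The comparisons made by the authors with Cuffdiff were not used. Tables and figures were made with Python 3.11.15, pandas 2.3.3, numpy 2.4.6 and matplotlib 3.10.9.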

Additional observations from a re-analysis of the deposited data

Results flagged for a closer look

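In the uterus of OT1, 10 of the 39 genes lay so far above the other 3 OT uteruses that the gap took up nearly the whole range of the group by Dixon's criterion. These were Thrsp at 443 FPKM, Acly at 250 FPKM, Dgat2 at 250 FPKM, Agpat2 at 270 FPKM, Acaca at 204 FPKM, Slc27a1 at 189 FPKM, Slc25a1 at 179 FPKM, Agpat3 at 77.1 FPKM, Acss2 at 58.8 FPKM and Mlxipl at 33.4 FPKM. The criterion was applied to 78 groups of 4 OT libraries, and all 10 that were singled out were this library. Chance would single out 1 in 20, or 3.9, if the groups were independent. They are not, since the 39 genes were measured in the same libraries, so 10 cannot be weighed against 3.9.

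The change from OC to OT differed between uterus and ovary for 7 genes by limma at the unadjusted cutoffs, and none of these differences held after adjustment. The difference of the log2 fold changes was 3.31 for Gpd1, 3.29 for Pnpla3, 2.51 for Acsl1, 2.42 for Pparg, 2.26 for Lpl, 1.34 for Slc27a1 and 1.28 for Dgat1, each larger in the uterus.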

How the results depend on the processing

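Pseudocounts, filters, median-ratio and TPM scaling and robust eBayes left the counts within 1.5 times of 4 genes in the ovary, 17 in the uterus, 19 between tissues and 7 for the difference of responses. TPM scaling shifted the median of all genes in the uterus to −0.13 and gave 15 calls there. A single fit of all 14 libraries gave 1 call in the ovary (Cd36) and 23 in the uterus, where Lpl and Acsl1 then had adjusted p of 0.0317 and 0.0385 by limma. This fit shares a residual spread between the tissues and treats the libraries of a mouse as independent. Its standard errors in the uterus were 0.59 for Lpl and 0.61 for Acsl1, against 0.67 and 0.69 in the fit of uteruses alone. The share of all genes called in the single fit was not computed. Leaving out each replicate gave 1 to 9 ovary genes, 11 to 22 uterus genes, 13 to 20 between tissues and 2 to 13 for the difference of responses. The uterus count was 11 without OC1 or OC2, and the difference count was 2 without OC1 of the uterus, 4 without OC3 of the ovary and 13 without OT2 of the uterus.

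The adipocyte marker covariate left 0 ovary calls and 10 uterus calls, all lower (Slc25a1, Acly, Acss2, Me1, Elovl6, Pck1, Lpin1, Dgat1, Mlxipl and Cebpa). It changed the sign of the log2 fold change of 21 of the 39 genes in the ovary and of 33 in the uterus. In the uterus 31 went from above to below 0: Slc25a1 (−1.32), Acly (−1.70), Acss2 (−1.52), Thrsp (−0.52), Scd1 (−2.31), Gpihbp1 (−0.78), Cd36 (−0.39), Slc27a1 (−0.82), Pck1 (−2.63), Gpd1 (−1.12), Slc2a4 (−0.36), Gpam (−0.67), Gpat3 (−0.72), Agpat2 (−1.46), Agpat3 (−0.60), Lpin1 (−1.15), Dgat1 (−1.10), Srebf1 (−0.75), Mlxipl (−2.66), Pparg (−0.027), Cebpa (−1.18), Acaca (−1.95), Acacb (−1.42), Fasn (−2.08), Me1 (−1.89), Elovl6 (−2.74), Fabp5 (−1.01), Gpat4 (−0.69), Agpat1 (−0.29), Lpin2 (−0.02) and Dgat2 (−0.67). Lpin3 (0.15) and Mogat2 (0.46) went from below to above 0. The OC and OT uteruses did not overlap in the covariate, so this fit compares them outside the range that either group covers, and the cause was not tested. In the ovary the markers were also higher in OT1, OT2 and OT4 than in OC, so the lost calls there are no test of adipocyte content.

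With the replicate number as a block, which leaves out OT4, 5 genes were called in ovaries and 16 in uteruses. With the animal as a block 20 were called between tissues and 10 for the difference of responses. OC and OT libraries of the same number come from different mice and share only that number, and their deviations correlated at 0.02 to 0.34 in the ovary and −0.01 to 0.08 in the uterus. Without counts, depth sets no limit that could be stated, and with 3 against 4 mice small changes could not be told from the spread.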
